A study of Mus musculus with 6 samples.

Results

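Cytotoxic lymphocytes store killing enzymes in secretory granules and release interferon gamma, and 9 genes of this equipment are described here in the mouse mitral valve. The genes are Gzma, Gzmb, Gzmk, Prf1, Nkg7, Ifng, Klrd1, Eomes and Tbx21, taken by their symbols from the 31053 genes of the deposited tables, and each symbol matched 1 gene. Valves of K/B.g7 mice, labelled inflamed, were compared with valves of B.g7 mice, labelled control, at 3, 8 and 25 weeks of age. K/B.g7 mice carry the KRN transgene for a T cell receptor together with the class II molecule of the g7 haplotype and develop autoantibody-driven arthritis and inflammation of the heart valves. B.g7 mice carry the same haplotype and lack the transgene. Because the transgene is a T cell receptor, the T cell repertoire itself differs between the genotypes. Valves were digested with enzymes and live cells were sorted into 6 droplet libraries, 1 per age of each genotype, in which RNA molecules were counted by unique molecular identifiers (UMIs). The labels do not state how many mice went into a library, or their sex, and p-values therefore reflect the spread between these libraries, which may in part be technical.

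Depth ranged between 15196750 UMIs in the smallest library, that of B.g7 at 3 weeks, and 69152541 UMIs in the largest, that of K/B.g7 at 25 weeks. After filtering 47871 cells remained, and their median depth per library lay between 2869 and 5601 UMIs, with both extremes at 25 weeks, the lower in K/B.g7. Pairs of libraries shared 3 to 66 cell barcodes. Cells were clustered without the 9 genes and clusters were named from other markers, which gave 164 NK-like, 144 innate lymphoid-like, 467 mature T cell-like and 486 thymocyte-like cells. In the NK-like cluster 97.6% of cells had a UMI of Ncr1, Klrb1c or Klre1, genes of NK receptors, and 26.2% had a UMI of a Cd3 gene, which marks T cells. Only 2 NK-like and 12 mature T cell-like cells came from the 3-week libraries, too few for values within these classes at that age. At 25 weeks, thymocyte-like cells with Rag1 or Dntt, genes of developing lymphocytes, made up much of the immune fraction, and they were kept apart from the mature T cells. Whether they came from the valve or from thymus tissue taken with it was not tested, and the immune and valve-wide levels at 25 weeks include them.

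Granzymes are serine proteases that enter a target cell and trigger its death, and perforin, the product of Prf1, forms the pores that let them in. Nkg7 encodes a granule membrane protein needed for granule release, and Ifng encodes interferon gamma, which activates macrophages and induces MHC and guanylate-binding proteins in neighbouring cells. Klrd1 encodes CD94, a surface receptor that pairs with NKG2 proteins and recognises a non-classical MHC molecule. Eomes and Tbx21, which encodes T-bet, are T-box transcription factors that direct the cytotoxic programme and the transcription of Ifng in NK cells and T cells.

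The 3 granzymes of the set lie at 2 places in the genome. In the mm10 build, Gzma lies at chr13:113093825-113100981 and Gzmk at chr13:113171608-113225908, both on the minus strand and separated by 70626 bases. Gzmb lies in another cluster of granule proteases, at chr14:56258838-56262260 on the minus strand, and Nkg7 at chr7:43437073-43438249 on the plus strand. Prf1 lies at chr10:61297833-61304680, Ifng at chr10:118441046-118445892, Klrd1 at chr6:129591782-129598775 and Eomes at chr9:118478212-118486132, all on the plus strand, and Tbx21 at chr11:97098071-97115331 on the minus strand. Promoter windows of the 3 granzymes are printed here because these genes differed in which lymphocytes held them, and that of Nkg7 because it was found in more NK-like and T cell-like cells than any other member. Each window is the 250 bases before the start that RefSeq gives on GRCm38.p6, read along the strand of the gene, with matches to the T-box motif AGGTGTGA, to its core GGTGTG and to the Runx motif TGTGGT in capitals. A motif on the opposite strand appears as its reverse complement, as ACCACA for Runx. The windows are chr13:113100982-113101231 (Gzma, minus strand), chr14:56262335-56262584 (Gzmb, minus strand), chr13:113180966-113181215 (Gzmk, minus strand) and chr7:43436888-43437137 (Nkg7, plus strand), and each is counted from the RefSeq start. That start lies inside the gene model given above for Gzmk and Nkg7, so the end of the Nkg7 window, with its T-box motif, falls within the printed gene coordinates.
Gzma: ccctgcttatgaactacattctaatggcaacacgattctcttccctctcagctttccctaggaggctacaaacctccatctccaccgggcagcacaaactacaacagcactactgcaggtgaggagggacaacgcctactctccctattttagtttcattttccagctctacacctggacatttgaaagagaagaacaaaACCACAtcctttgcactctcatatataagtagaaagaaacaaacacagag
Gzmb: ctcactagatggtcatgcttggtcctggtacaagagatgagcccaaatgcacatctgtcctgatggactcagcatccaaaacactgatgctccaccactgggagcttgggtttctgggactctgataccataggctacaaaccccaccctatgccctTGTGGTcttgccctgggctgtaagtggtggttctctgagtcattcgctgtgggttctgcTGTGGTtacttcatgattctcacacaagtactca
Gzmk: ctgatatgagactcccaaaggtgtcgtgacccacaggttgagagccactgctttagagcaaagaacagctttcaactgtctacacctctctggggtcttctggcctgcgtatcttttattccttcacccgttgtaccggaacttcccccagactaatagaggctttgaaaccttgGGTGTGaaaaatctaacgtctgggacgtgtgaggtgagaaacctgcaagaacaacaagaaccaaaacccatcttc
Nkg7: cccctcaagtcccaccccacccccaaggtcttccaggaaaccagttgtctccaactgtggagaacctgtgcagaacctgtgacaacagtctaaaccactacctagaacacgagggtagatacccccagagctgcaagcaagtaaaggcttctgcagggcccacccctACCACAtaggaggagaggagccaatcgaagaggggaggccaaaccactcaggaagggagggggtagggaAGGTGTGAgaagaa
The full T-box motif, searched on both strands, was in the window of Nkg7, where it began 14 bases before the RefSeq start, and in none of the other 7 member windows that the RefSeq table holds. It was in 1.12% of 32851 promoter windows of the same length. Its core, which overlaps the full motif, was in the windows of Gzmk and Nkg7 and in 16.3% of all windows. The Runx motif was in 4 of the 8 member windows, those of Gzma, Gzmb, Nkg7 and Prf1, and in 14.0% of all windows. A match to the NFAT motif GGAAA was also found in 4 of the 8, those of Gzma, Ifng, Nkg7 and Tbx21, against 55.6% of all windows. These matches describe letters in a window and not sites in use. Klrd1 had no entry in the promoter table.

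Most UMIs of each gene lay in NK-like and mature T cell-like cells, but the genes divided between these classes differently. NK-like cells held 70.9% of the 3160 Gzma UMIs and 64.0% of the 203 Prf1 UMIs, while mature T cell-like cells held 18.1% and 22.2%. Gzmk had 3.48% of its 115 UMIs in NK-like cells and 77.4% in T cell-like cells. The other 6 genes were shared more evenly. For Gzmb the NK-like share was 30.9% and the T cell-like share 42.2% of 725 UMIs, for Nkg7 34.8% and 49.9% of 2719, and for Ifng 38.1% and 46.5% of 1005. Klrd1 had 36.8% of its 845 UMIs in NK-like cells and 32.3% in T cell-like cells, Eomes 54 of its 135 UMIs in NK-like cells and 45.9% in T cell-like cells, and Tbx21 37.7% and 40.4% of 146.

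**Figure D1:**
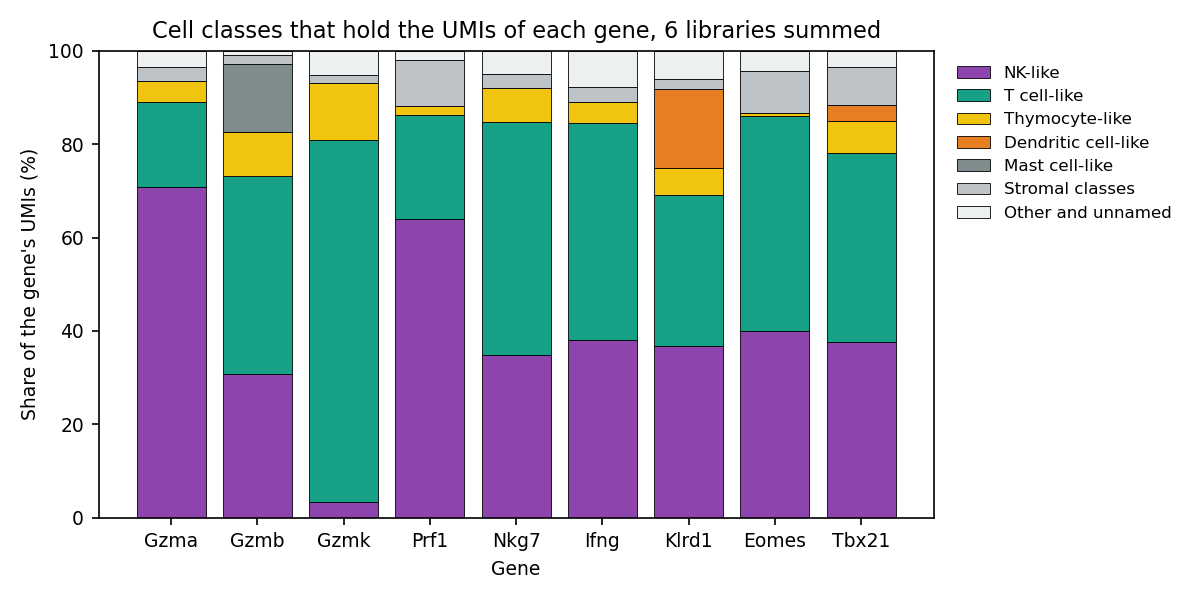
Share of the UMIs of each gene (y axis, %) held by each class of cells, over the 6 libraries summed, with 1 bar per gene. The NK-like part fills 70.9% of the Gzma bar and 64.0% of the Prf1 bar, and the T cell-like part fills 77.4% of the Gzmk bar.

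Fibroblast-like cells, the matrix cells of the valve, should lack these genes and served as the measure of free RNA. Among 36735 fibroblast-like cells with a median of 3763 UMIs, the share of cells with a UMI was at most 0.182% (Gzma) and at least 0.00544% (Gzmk). NK-like cells had a lower median of 1804 UMIs and T cell-like cells one of 2323 UMIs, and their shares were far above this background for each gene. The summed level of Gzma was 0.483 UMIs per 1e6 (CPM, UMIs of the gene per 1e6 UMIs of the same cells) in fibroblast-like cells. Innate lymphoid-like cells, helper lymphocytes marked here by Il13, Areg and Il1rl1, had 0 UMIs of Gzma, Gzmb, Gzmk, Klrd1, Eomes and Tbx21 in 144 cells, which allows a share of cells with a UMI of up to 2.08% (floor of 3 counts). Predicted doublets were left out, and they held from 7.88% (Gzmb) to 21.05% (Ifng and Eomes) of the UMIs of each gene.

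Gzma differed more between NK-like and T cell-like cells than the other 7 members that passed the filter of the test. Its level in NK-like cells was 5299 CPM in K/B.g7 and 4636 CPM in B.g7 at 8 weeks, and 7345 CPM in K/B.g7 and 8334 CPM in B.g7 at 25 weeks. The T cell-like level was 252 CPM in K/B.g7 and 123 CPM in B.g7 at 8 weeks, and 864 CPM in K/B.g7 and 1408 CPM in B.g7 at 25 weeks. Of the 40 UMIs behind the B.g7 value of 8 weeks, 25 came from 1 cell, and without the cell of most Gzma UMIs in each library the 8-week levels were 195 CPM in K/B.g7 and 46.4 CPM in B.g7. The ranges of the classes did not overlap. The 4 libraries with at least 20 cells of each class allow a test within libraries, in which NK-like cells together with innate lymphoid-like cells were set against T cell-like cells with the library as a block. Gzma was 3.01 ± 0.26 higher on the log2 scale (SE, edgeR's quasi-likelihood test, adjusted p = 9.607e-09).

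The difference of Prf1 was the next in size. Prf1 stood at 349 CPM in K/B.g7 and 210 CPM in B.g7 NK-like cells at 8 weeks, and at 357 CPM in K/B.g7 and 587 CPM in B.g7 at 25 weeks. T cell-like cells had 32.4 CPM in K/B.g7 and 39.95 CPM in B.g7 at 8 weeks and 44.1 CPM in K/B.g7 and 29.0 CPM in B.g7 at 25 weeks, so that no T cell-like value reached the lowest NK-like value. With NK and innate lymphoid-like cells pooled, the difference was 2.50 ± 0.29 on the log2 scale (SE, edgeR, adjusted p = 7.344e-07). Gzmb, the granzyme best known for triggering apoptosis, differed less. Its level in NK-like cells was 898 CPM in K/B.g7 and 505 CPM in B.g7 at 8 weeks, and 502 CPM in K/B.g7 and 635 CPM in B.g7 at 25 weeks. T cell-like cells had 285 CPM in K/B.g7 and 227 CPM in B.g7 at 8 weeks and 315 CPM in K/B.g7 and 86.9 CPM in B.g7 at 25 weeks. Again the classes did not overlap. The fit pooled NK-like cells with innate lymphoid-like cells, which had no Gzmb UMI, so its size is not that of NK-like cells alone. Its difference of 0.74 ± 0.23 passed the threshold (edgeR, adjusted p = 0.0356) but not without the B.g7 library of 25 weeks, where it was 0.433.

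Gzmk, a granzyme of memory-type CD8 T cells, was lower in NK-like cells. They held 4 Gzmk UMIs in all, 1 each in K/B.g7 and B.g7 at 8 weeks, and 0 in K/B.g7 versus 2 in B.g7 at 25 weeks. T cell-like cells had 73.3 CPM in K/B.g7 and 89.1 CPM in B.g7 at 8 weeks and 44.1 CPM in K/B.g7 and 58.0 CPM in B.g7 at 25 weeks. Gzmk did not pass the filter on low counts. With no filter the NK or innate lymphoid-like minus T cell-like difference was -3.36 ± 0.55 on the log2 scale (edgeR, adjusted p = 1.4005e-07).

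Nkg7 and Ifng were high in both classes. Nkg7 was at 2780 CPM in K/B.g7 and 2616 CPM in B.g7 NK-like cells at 8 weeks and at 2193 CPM in K/B.g7 and 2896 CPM in B.g7 at 25 weeks, and 94.5% of NK-like cells had a UMI of it. T cell-like cells were at 1226 CPM in K/B.g7 and 1361 CPM in B.g7 at 8 weeks, and then at 574 CPM in K/B.g7 and 580 CPM in B.g7 at 25 weeks. The difference was 0.84 ± 0.22 (edgeR, adjusted p = 0.0118), and it missed the threshold without the 25-week library of K/B.g7 (0.63, adjusted p = 0.110) or of B.g7 (0.587, adjusted p = 0.224). Ifng had 1184 CPM in K/B.g7 and 892 CPM in B.g7 NK-like cells at 8 weeks and 1136 CPM in K/B.g7 and 1161 CPM in B.g7 at 25 weeks. For T cell-like cells the values were 416 CPM in K/B.g7 and 286 CPM in B.g7 at 8 weeks and 397 CPM in K/B.g7 and 383 CPM in B.g7 at 25 weeks. Of the 66 Ifng UMIs behind that last value, 41 came from 1 cell, and without the cell of most Ifng UMIs in each library the 25-week levels were 323 CPM in K/B.g7 and 148 CPM in B.g7. In NK and innate lymphoid-like cells together Ifng was higher by 0.88 ± 0.16 (edgeR, adjusted p = 0.000499), and by 1.36 ± 0.19 without those T cell-like cells (edgeR, adjusted p = 7.001e-06), an alternative chosen after the data were seen. That alternative lowers the T cell-like side alone, since NK-like cells with many Ifng UMIs, up to 24 in 1 cell, were kept.

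The receptor gene Klrd1 was called higher as well, and the T-box genes had higher values that were not called. Klrd1 levels in NK-like cells were 1060 CPM in K/B.g7 and 732 CPM in B.g7 at 8 weeks and 938 CPM in K/B.g7 and 782 CPM in B.g7 at 25 weeks. T cell-like cells gave 269 CPM in K/B.g7 and 194 CPM in B.g7 at 8 weeks and 214 CPM in K/B.g7 and 92.7 CPM in B.g7 at 25 weeks, below every NK-like value, and the difference was 1.43 ± 0.20 (edgeR, adjusted p = 1.668e-05). Eomes had 137 CPM in K/B.g7 and 126 CPM in B.g7 NK-like cells at 8 weeks and 159 CPM in both genotypes at 25 weeks. In T cell-like cells it had 66.5 CPM in K/B.g7 and 58.4 CPM in B.g7 at 8 weeks but 12.6 CPM in K/B.g7 and 11.6 CPM in B.g7 at 25 weeks, where 2 UMIs were counted in each library. Tbx21 had 112 CPM in K/B.g7 and 160 CPM in B.g7 NK-like cells at 8 weeks and 185 CPM in K/B.g7 and 159 CPM in B.g7 at 25 weeks. T cell-like cells had 44.3 CPM in K/B.g7 and 36.9 CPM in B.g7 at 8 weeks and 50.4 CPM in K/B.g7 and 63.8 CPM in B.g7 at 25 weeks, so that for both genes the classes did not overlap. Neither Eomes (0.97 ± 0.41, adjusted p = 0.162) nor Tbx21 (0.91 ± 0.32, adjusted p = 0.0777) passed the threshold of edgeR in the fit that includes innate lymphoid-like cells.

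Of the 8 genes that passed the filter, 6 were thus called higher in NK and innate lymphoid-like cells, against a background of 6.05% of all 2248 genes called higher and 3.96% called lower. Their median difference was 0.936 on the log2 scale, against -0.0186 over all genes tested. Prf1 passed the filter here but not in T cell-like cells alone, and Gzmk, lower in NK-like cells, did not pass it here. The filter thus leaned the count and the median toward NK-like cells, and both are a description. With the innate lymphoid-like cells left out, a choice made after the data were seen, Eomes (1.75 ± 0.39, adjusted p = 0.0055) and Tbx21 (1.63 ± 0.30, adjusted p = 0.0010) passed as well, and 6.68% of 1916 genes were called higher and 7.05% lower. Against the T cell cluster led by Ccl5 and Nkg7 alone, 7 of 8 passed and Eomes did not (0.99 ± 0.39, edgeR, adjusted p = 0.107), with 15.9% of 1412 genes called, 7.44% higher and 8.5% lower. Gzma was 2.98 ± 0.32 higher in that comparison (edgeR, adjusted p = 5.1919e-06). When classes were drawn from marker UMIs in place of clusters, Gzma and Prf1 alone passed. The clusters were made without the members but not without genes of like pattern. The p-values between these classes are therefore not free of how cells were clustered.

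**Figure D2:**
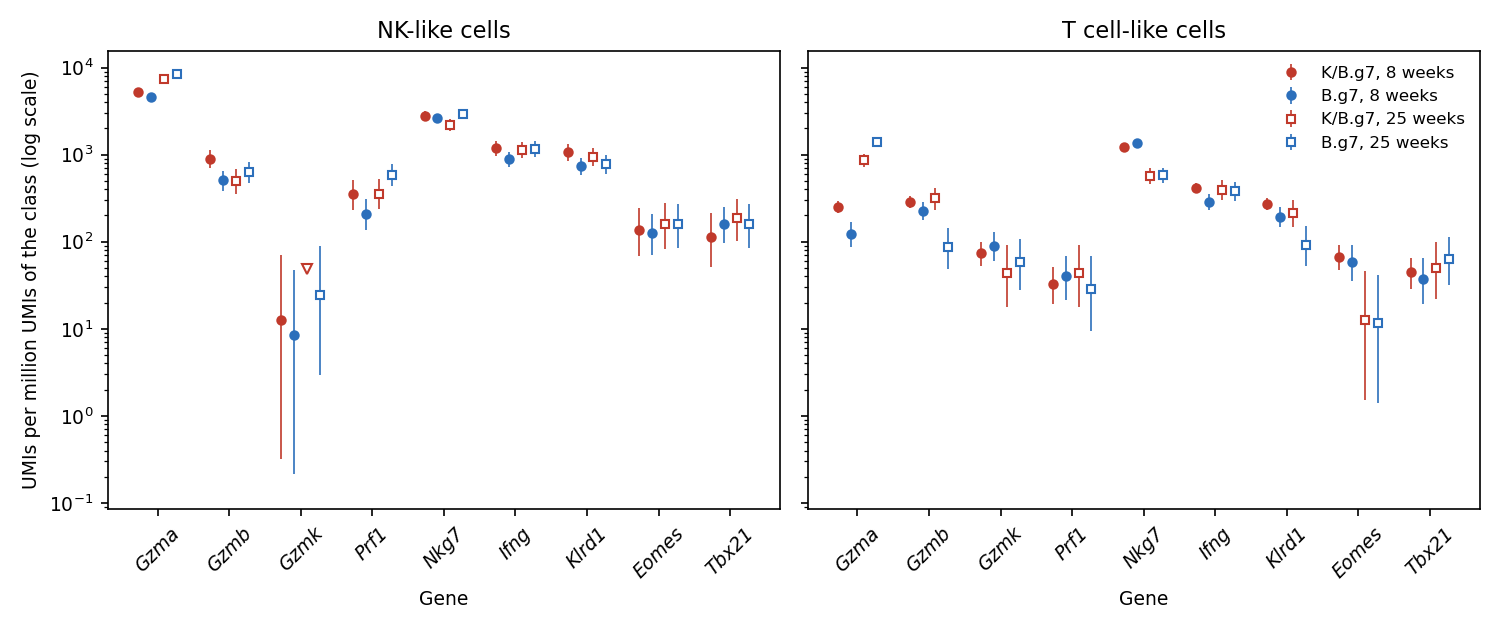
Level of each gene (y axis, UMIs per 1e6 UMIs of the class, log scale) in NK-like cells (left) and T cell-like cells (right), with 1 point for each library of 8 and 25 weeks and bars for the exact Poisson 95% interval, which covers counting error only; the downward triangle is the limit that a count of 0 allows. NK-like Gzma sits between 4636 and 8334 CPM and T cell-like Gzma between 123 and 1408 CPM, and Gzmk is the gene whose T cell-like points lie above its NK-like points.

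Among the 3 clusters of mature T cell-like cells, 1 had a higher share of cells with every member than the other clusters. That cluster of 301 cells, led by Ccl5 and Nkg7, had Cd8a, part of the CD8 co-receptor, in 33.9% of its cells. Gzmk was found in 18.3% of them, Gzma in 13.6%, Prf1 in 12.6%, Eomes in 14.95%, Gzmb in 23.3%, Ifng in 30.9%, Klrd1 in 31.6% and Nkg7 in 66.1%. Another cluster of 77 cells with Ctla4, of which 63 came from the K/B.g7 library of 8 weeks, had Nkg7 in 18.2%, Ifng in 14.3% and Gzmb in 13.0% of its cells. In that cluster Gzmk, Prf1 and Eomes had 0 UMIs, which with 77 cells does not show that they are absent. The remaining cluster, 89 cells with Trdc of the gamma-delta T cell receptor, had Gzmb in 2 cells and Tbx21 in 4 cells and 0 UMIs of the other 7 genes.

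**Figure D3:**
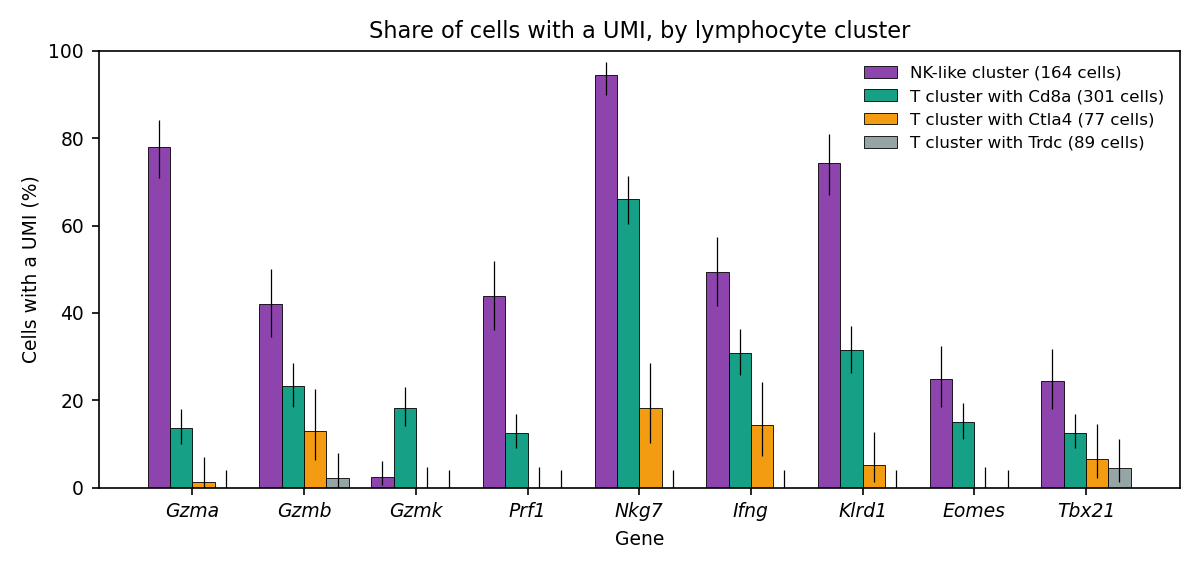
Share of cells with a UMI of each gene (y axis, %) in the NK-like cluster and in the 3 mature T cell-like clusters, over all libraries, with exact binomial 95% intervals that cover counting error only. In the cluster led by Ccl5 and Nkg7 (T cluster with Cd8a in the legend) the share runs from 12.6% (Prf1 and Tbx21) to 66.1% (Nkg7), and in the cluster with Trdc 7 of the 9 genes are at 0.

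Cells were also divided by co-receptor UMIs in place of clusters. Of the mature T cell-like cells, 143 had a UMI of Cd8a or Cd8b1 and none of Cd4, with a median of 2569 UMIs, and 45 had the reverse, with a median of 3203 UMIs. Nkg7 was found in 89.5% of the Cd8 cells and 28.9% of the Cd4 cells, Gzmk in 29.4% and 2.22%, and Eomes in 24.5% and 2.22%. Gzma was found in 18.2% and Prf1 in 17.5% of the Cd8 cells, and both had 0 UMIs in the 45 Cd4 cells, which allows a share of up to 6.67%. Ifng was in 41.3% and 13.3%, and Tbx21, which also directs helper cells that make interferon gamma, in 16.1% and 8.89%. The shallower Cd8 cells had the higher share for all 9 genes. These shares pool the libraries and carry no test.

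Gzma was unevenly spread among T cells. All 573 of its UMIs in T cell-like cells came from 42 of 467 cells, with up to 63 UMIs in 1 cell, whereas 128 of 164 NK-like cells had it. Of these 42 cells, 35 had a UMI of a Cd3 gene and 19 had a UMI of Ncr1, Klrb1c or Klre1, a share of 45.2%, against 5.41% of the T cell-like cells without Gzma. Only 1 of the 42 had an NK gene and no Cd3 UMI. Gzmb was found in 57.1% of them and in 13.65% of T cell-like cells without Gzma, and Nkg7 in 90.5% and 41.2%, although their median of 1785 UMIs was below the 2399 UMIs of the cells without it.

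Most NK-like cells carried several of the genes at once. Their median was 5 of the 9, 88.4% of them had at least 3 and 1.22% had none. In the T cell cluster led by Ccl5 and Nkg7, 42.2% of cells had at least 3 and 25.25% had none, and over all mature T cell-like cells the values were 27.6% and 43.7%. Of fibroblast-like cells 99.5% had none. Within NK-like cells the genes did not all go together. Prf1 was found in 52.3% of cells with Gzma and 13.9% of those without, and Gzmb in 49.2% and 16.7%, but Ifng was in 63 of 128 cells with Gzma and 18 of 36 cells without it. The cells without Gzma were the deeper ones, with a median of 2574.5 UMIs against 1614 UMIs.

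**Figure D4:**
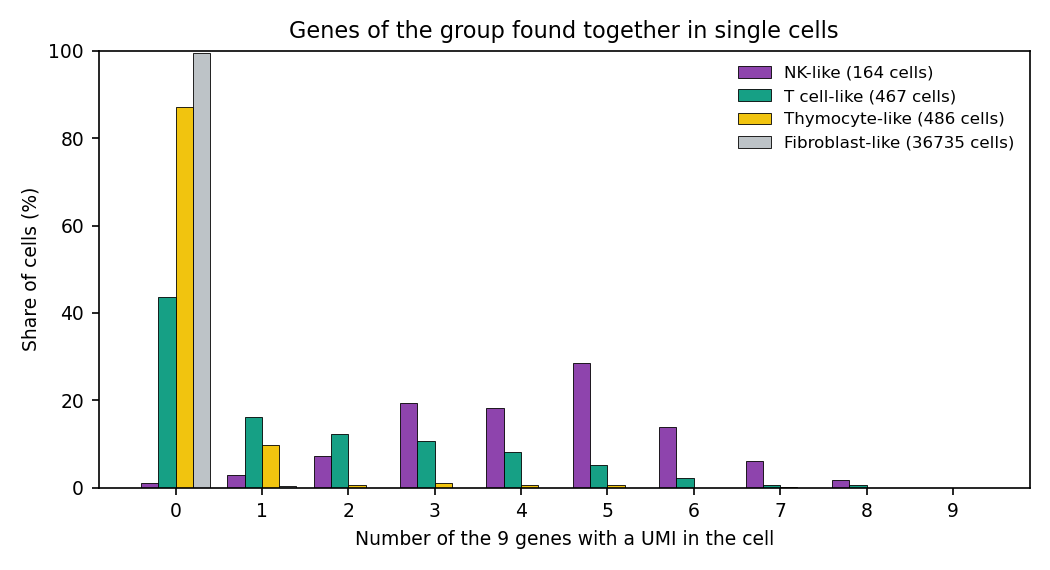
Share of cells (y axis, %) by the number of the 9 genes with a UMI in the cell (x axis), for NK-like, mature T cell-like, thymocyte-like and fibroblast-like cells. NK-like cells have a median of 5, 43.7% of T cell-like cells have none, and 99.5% of fibroblast-like cells have none.

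Having a UMI of 1 T-box gene went with little difference in the share of cells with the other. Tbx21 was found in 26.8% of NK-like cells with Eomes and 23.6% of those without, and in 8.89% of T cell-like cells with Eomes and 10.19% of those without. A UMI of both was found in 11 NK-like cells (6.71%) and 4 T cell-like cells (0.857%), and a cell without a UMI of either gene is not shown to lack it. Among T cell-like cells with Eomes and no Tbx21, 46.3% had Gzmk and 7.32% had Gzma. Among those with Tbx21 and no Eomes, 18.6% had Gzmk and 27.9% had Gzma. These groups held 41 and 43 cells with medians of 2653 and 2569 UMIs.

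Some of the genes were also found outside NK-like and mature T cell-like cells. Fibroblast-like, endothelial-like and other stromal cells together held 20 Prf1 UMIs (9.85% of all), 12 of Eomes (8.89%) and 12 of Tbx21 (8.22%). Endothelial-like cells held 7 of these Prf1 UMIs and lymphatic endothelial-like cells 6. The share of cells with Prf1 averaged 1.49% over 6 libraries in lymphatic endothelial-like cells, against 0.0159% in fibroblast-like cells. Dendritic cell-like cells held 143 Klrd1 UMIs, 16.9% of all, in 43 of 121 cells, and 0 UMIs of Gzma, Gzmb, Gzmk, Prf1, Nkg7, Ifng and Eomes. Klrd1 in that class was at 224 CPM in K/B.g7 (56 cells) and 326 CPM in B.g7 (11 cells) at 8 weeks. At 25 weeks it was at 266 CPM in K/B.g7 (21 cells) and 121 CPM in B.g7 (17 cells). Both B.g7 values rest on fewer than the 20 cells required for the tests. The 3-week libraries, with 7 cells in K/B.g7 versus 9 cells in B.g7, had 4 UMIs each. Mast cell-like cells held 106 Gzmb UMIs, 14.6% of all, and 94 of these came from a single cell of the B.g7 library of 8 weeks.

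Cells of the thymocyte-like class held Gzma at 25 weeks and, in cells without Rag1 or Dntt, other members at 8 weeks. The 355 of them with a UMI of Rag1 or Dntt had 103 Gzma UMIs in 39 cells, or 10.99%, with up to 24 UMIs in 1 cell, and 0 to 2 UMIs of every other member. At their median of 1357 UMIs this share lay far above the 0.182% of fibroblast-like cells. In the cluster of the class with Mki67, a gene of dividing cells, the 8-week cells had neither Rag1 nor Dntt, and 13 of 14 from K/B.g7 and 2 of 5 from B.g7 had Mki67. The 14 K/B.g7 cells held 164 Nkg7, 65 Gzmb, 39 Klrd1, 27 Ifng and 13 Gzmk UMIs and 0 Gzma UMIs. The 5 B.g7 cells held 23 Nkg7, 8 Klrd1 and 1 Ifng UMIs and none of Gzmb or Gzmk. None of these 8-week cells counted in the mature T cell-like levels or in their main genotype fit. The 25-week cells of this cluster, 93.0% of which in K/B.g7 versus 94.6% in B.g7 had Rag1 or Dntt, held 29 Gzma UMIs in K/B.g7 versus 81 in B.g7, and the B.g7 cells among them also held 17 Ifng and 15 Nkg7 UMIs. The 3 B.g7 cells without Rag1 or Dntt held all 17 Ifng, 13 of the Nkg7 and 27 of the Gzma UMIs.

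Over all cells of the valve, the genes were nearly undetected at 3 weeks. Values here sum every cell of a library, so that fewer lymphocytes and less RNA per lymphocyte cannot be told apart. Ifng was at 0.0373, 10.8 and 3.37 CPM at 3, 8 and 25 weeks in K/B.g7 and at 0.0708, 8.11 and 3.79 CPM in B.g7, and each 3-week value was a single UMI. Nkg7 had 0.149, 31.9 and 5.53 CPM in K/B.g7 and 0.638, 29.2 and 7.71 CPM in B.g7. Gzma, by contrast, had 0.187, 16.1 and 15.8 CPM in K/B.g7 and 1.91, 21.9 and 22.6 CPM in B.g7. At 3 weeks 27 UMIs of Gzma were counted in B.g7, all in 2 NK-like cells, and 5 in K/B.g7.

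Ages were compared in a model of all 6 libraries with the genotype as a block, and 5 of the 9 genes were higher at 25 than at 3 weeks, against 1.05% of all 16013 genes called higher and 4.05% called in either direction. Ifng differed by 6.10 ± 0.51 on the log2 scale (SE, edgeR, adjusted p = 0.0028), Nkg7 by 4.28 ± 0.47 (0.00762), Gzma by 4.56 ± 0.60 (0.0140), Gzmb by 4.92 ± 0.79 (0.0262) and Klrd1 by 2.79 ± 0.48 (0.0335). Fitted values of Ifng and Gzmb rest on 0 to 2 UMIs per library at 3 weeks, so their size depends on the fit. Prf1 was at 2.07 ± 0.52 (adjusted p = 0.0997), Tbx21 at 2.07 ± 0.87 (0.251), Gzmk at 2.04 ± 1.08 (0.335) and Eomes at 1.72 ± 1.03 (0.386), and none of these passed. The median over the 9 was 2.79, against 0.0103 over all genes. Ifng alone passed without either 25-week library, and Ifng, Nkg7 and Gzma without the K/B.g7 library of 3 weeks. The number of lymphocytes moved the same way: mature T cell-like cells were 0.147%, 2.27% and 0.637% of the cells at 3, 8 and 25 weeks in K/B.g7 and 0.110%, 1.81% and 0.693% in B.g7. NK-like cells were 0 of 5441, 0.385% and 0.361% in K/B.g7 and 0.0548%, 0.639% and 0.420% in B.g7. The part of these shares in the age differences was not tested.

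**Figure D5:**
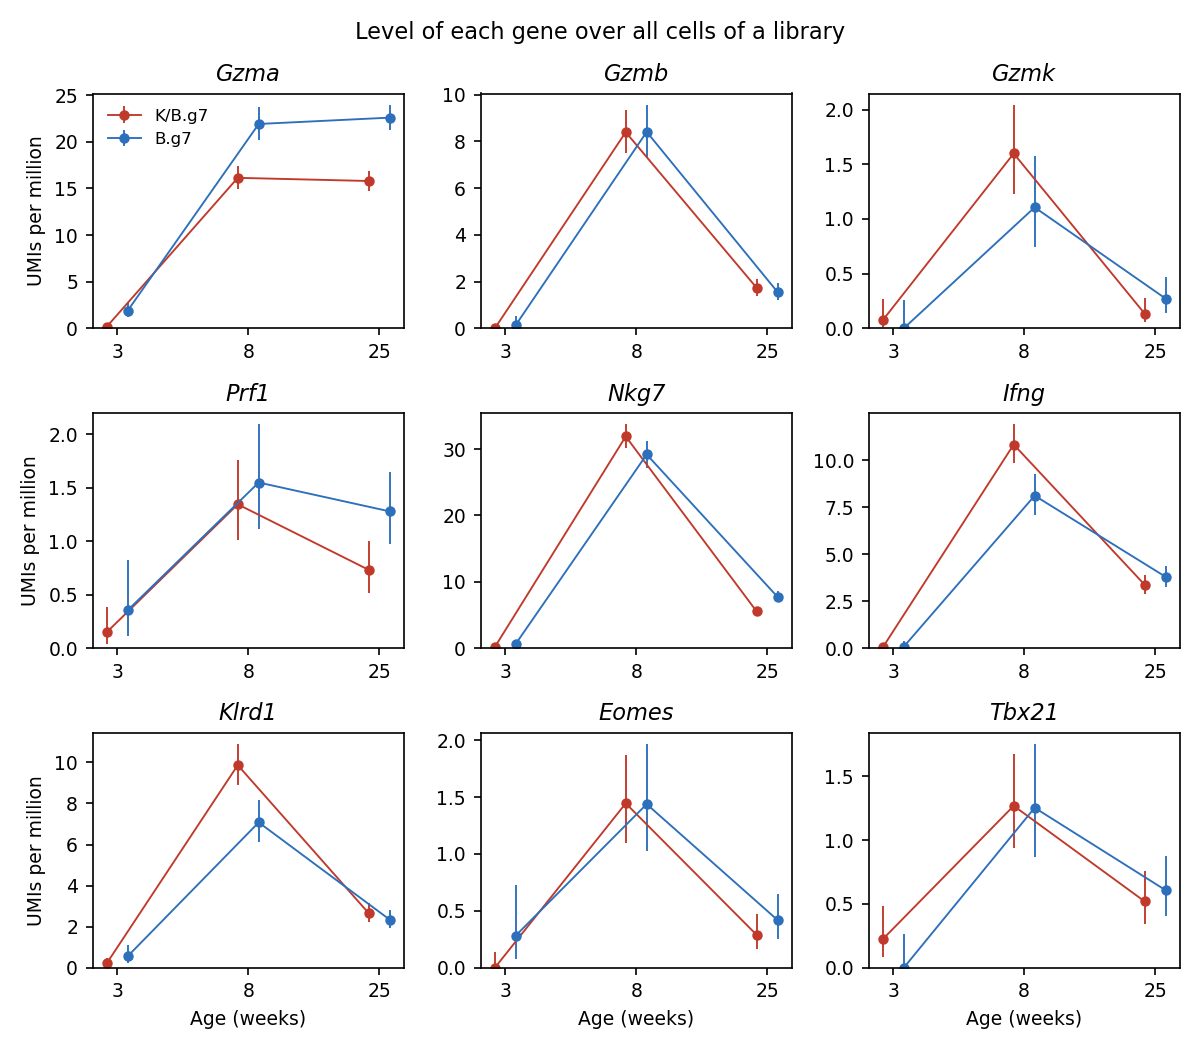
Level of each gene over all cells of a library (y axis, UMIs per 1e6, a scale of its own in each panel) at 3, 8 and 25 weeks (x axis, evenly spaced), with 1 point per library and exact Poisson 95% intervals that cover counting error only. Gzma is at 16.1 and 15.8 CPM at 8 and 25 weeks in K/B.g7 and at 21.9 and 22.6 CPM in B.g7, while Nkg7 is at 31.9 and 5.53 CPM in K/B.g7 and at 29.2 and 7.71 CPM in B.g7.

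Between 8 and 25 weeks Gzma had a smaller valve-wide change than any of the other 8 genes. Its valve-wide level at 25 weeks was 0.979 times that at 8 weeks in K/B.g7 (95% counting interval 0.882 to 1.09) and 1.03 times in B.g7 (0.932 to 1.14). For Nkg7 the ratio was 0.173 in K/B.g7 versus 0.264 in B.g7, for Ifng 0.311 in K/B.g7 versus 0.468 in B.g7, and for Gzmb 0.206 in K/B.g7 versus 0.185 in B.g7. Gzmk stood at a ratio of 0.0844 in K/B.g7 versus 0.246 in B.g7. The ratios of the 8 genes other than Gzma lay between 0.0844 and 0.825. Prf1 was at 0.544 (0.349 to 0.841) in K/B.g7 and 0.825 (0.548 to 1.25) in B.g7, where its interval overlapped that of Gzma. Each ratio compares 1 library with 1 other, so the intervals hold no spread between mice. Levels per UMI inside the T cell cluster led by Ccl5 and Nkg7 also differed between the ages. Gzma there was at 476 CPM at 8 weeks and 1278 CPM at 25 weeks in K/B.g7, and at 177.5 and 2283 CPM in B.g7. Nkg7 was at 2150 CPM at 8 weeks and 849 CPM at 25 weeks in K/B.g7, and at 1921 and 939 CPM in B.g7. The makeup of that cluster moved with age too: Cd8a was at 363 CPM at 8 weeks and 65.3 CPM at 25 weeks in K/B.g7, and at 302 and 169 CPM in B.g7. Its cells had a median of 2333 UMIs at 8 weeks and 1212 UMIs at 25 weeks in K/B.g7, and of 3083 and 2351 UMIs in B.g7. The part of makeup and depth in these levels was not tested.

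No member was called different between the genotypes in any of 4 sets of cells by edgeR or DESeq2. In NK and innate lymphoid-like cells, 0 of the 8 genes tested passed, against a background of 1.26% of 2070 genes, and 0 had an unadjusted p under 0.05. Fitted K/B.g7 minus B.g7 differences ran from -0.07 ± 0.28 (Nkg7) to 0.47 ± 0.29 (Klrd1) on the log2 scale, with a median of 0.108 against 0.00573 over all genes. Klrd1 was the member with the smallest p (edgeR, adjusted p = 0.636), and its level was higher in K/B.g7 NK-like cells at both ages, by 1.45 times at 8 weeks (counting interval 1.06 to 1.98) and 1.20 times at 25 weeks (0.843 to 1.71). With 1 residual degree of freedom this comparison can miss sizeable changes: on simulated counts it found 24% of 2-fold and 90% of 4-fold changes.

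In T cell-like cells 0 of 8 passed as well, against 0.0299% of 3345 genes. An unadjusted p under 0.05 was found for 2 of them, both with a higher value in K/B.g7. Gzmb differed by 0.88 ± 0.37 (edgeR, adjusted p = 0.779) and Klrd1 by 0.72 ± 0.32 (edgeR, adjusted p = 0.802). The Gzmb ratio was larger at 25 weeks, at which 50 UMIs were counted in K/B.g7 versus 15 in B.g7, a level ratio of 3.63 (counting interval 2.00 to 6.95), against 1.25 (0.947 to 1.67) at 8 weeks. Ifng was 1.46 times as high in K/B.g7 at 8 weeks (1.14 to 1.87) and 1.04 times at 25 weeks (0.723 to 1.49), a fitted difference of 0.30 ± 0.28. Without the cell of most Ifng UMIs in each library the ratio was 1.53 at 8 weeks (1.17 to 2.02) and 2.19 at 25 weeks (1.33 to 3.69), and the fitted difference was 0.80 ± 0.29 (edgeR, adjusted p = 0.912). The lowest fitted value was that of Gzmk, -0.34 ± 0.39. The makeup of the class differed between the genotypes at 8 weeks. The cluster with Ctla4, which held no Gzmk UMI, gave 63 of 194 K/B.g7 cells versus 11 of 99 from B.g7. The cluster led by Ccl5 and Nkg7 gave 106 versus 68 of them. The part of this makeup in the fitted differences of the class was not tested. When cells were thinned to 1000 UMIs, Ifng was found in 17.2% of K/B.g7 and 12.1% of B.g7 T cell-like cells at 8 weeks and in 12.9% of K/B.g7 and 11.1% of B.g7 cells at 25 weeks. Unthinned, the shares were 26.8% in K/B.g7 versus 23.2% in B.g7 at 8 weeks and 16.04% in K/B.g7 versus 19.6% in B.g7 at 25 weeks. Thinning left out 14 K/B.g7 and 8 B.g7 cells at 8 weeks and 21 K/B.g7 and 2 B.g7 cells at 25 weeks. These shares carry no test, since 2 against 2 libraries cannot give a p below 0.333 in an exact permutation test.

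Summed over all immune cells, 0 of 8 genes passed, against 0.353% of 8208 genes called in either direction and 0.0244% called lower. An unadjusted p under 0.05 was found for 1 gene by edgeR, Gzma, and for 1 by DESeq2. Gzma had the largest difference, with 17.8, 171 and 632 CPM at 3, 8 and 25 weeks in K/B.g7 and 164, 438 and 617 CPM in B.g7. K/B.g7 was lower at 3 and 8 weeks and the genotypes were close at 25 weeks. The fitted difference was -1.08 ± 0.38 (edgeR, adjusted p = 0.492). It was called with no filter on low counts (-1.08, adjusted p = 0.0065). It was also called without either 25-week library (-1.77, adjusted p = 4.8356e-07 without the one of K/B.g7 and 6.6826e-07 without the one of B.g7). With age as a block, a library left without its pair does not inform the genotype difference. These fits therefore rest on the same pairs of 3 and 8 weeks and are not separate evidence. The 3-week pair held 5 Gzma UMIs from K/B.g7 versus 27 from B.g7, the latter all in 2 NK-like cells. The makeup of the immune cells moved with the Gzma difference. NK-like cells were 4.67% of immune cells in K/B.g7 versus 12.03% in B.g7 at 8 weeks, and 8.65% in K/B.g7 versus 5.62% in B.g7 at 25 weeks. Monocyte-like cells were 29.8% in K/B.g7 versus 15.8% in B.g7 at 8 weeks, and thymocyte-like cells 23.8% in K/B.g7 versus 49.1% in B.g7 at 25 weeks. Within NK-like cells Gzma itself was 1.14 times as high in K/B.g7 at 8 weeks and 0.881 times at 25 weeks. The part of the makeup in the immune-cell difference was not tested. The other members ran from -0.62 ± 0.33 (Prf1) to 0.01 ± 0.30 (Klrd1).

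Over all cells of the valve 0 of 8 genes passed, against a background of 0% of 15370 genes, of which 790 had an unadjusted p under 0.05 and 59 were called by DESeq2. Gzma was again lowest, at -0.97 ± 0.43 (edgeR, adjusted p = 0.990), with lower values in K/B.g7 at all 3 ages. It was called without the 8-week library of K/B.g7 (-1.26, adjusted p = 0.0074) or that of B.g7 (-1.29, adjusted p = 0.0080). Both of these fits rest on the same pairs of 3 and 25 weeks, with few Gzma UMIs at 3 weeks. Tbx21 was the highest, at 0.17 ± 0.59. For Gzmb a single cell mattered: at 8 weeks its level was 8.39 CPM in K/B.g7 and 8.41 CPM in B.g7, but 8.09 CPM in K/B.g7 and 4.94 CPM in B.g7 without the mast cell-like cells. The share of NK and innate lymphoid-like cells was 0.522% ± 0.221 in K/B.g7 versus 0.871% ± 0.351 in B.g7 (SD, n = 3 each), lower in K/B.g7 at each of the 3 ages (exact permutation test, two-sided, p = 0.3, smallest possible 0.1). A gate on marker UMIs took cells with an NK receptor gene and no Cd3 UMI and used no marker of innate lymphoid-like cells. The gated cells were 0.306% in K/B.g7 versus 0.325% in B.g7, with 2 of the 3 ages higher in K/B.g7. By clusters, the share of mature T cell-like cells was 1.02% ± 1.11 in K/B.g7 versus 0.869% ± 0.862 in B.g7 (SD, n = 3 each, exact permutation test, two-sided, p = 0.9). These SDs span the ages. Exact permutation within ages gave p = 0.25, the smallest that 3 pairs allow, for NK and innate lymphoid-like cells and p = 0.75 for T cell-like cells (two-sided).

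Other genes of the cytotoxic programme and the signals that induce it were followed as 2 lists. Of 39 further granule, receptor and chemokine genes, 26 were tested in NK and innate lymphoid-like cells, and 2 were higher in K/B.g7, against 1.06% of genes called higher. Both encode chemokines. Ccl3 had 1671 CPM in K/B.g7 and 690 CPM in B.g7 NK-like cells at 8 weeks and 2140 CPM in K/B.g7 and 1014 CPM in B.g7 at 25 weeks, a fitted difference of 1.25 ± 0.29 (edgeR, adjusted p = 0.00165). Ccl4 had 8753 CPM in K/B.g7 and 3113 CPM in B.g7 at 8 weeks and 6605 CPM in K/B.g7 and 4252 CPM in B.g7 at 25 weeks, a difference of 1.14 ± 0.30 (edgeR, adjusted p = 0.0144). Both calls were lost with DESeq2 (adjusted p = 0.827 and 0.286), without the age block (0.851 for both), with doublets kept in (0.142 and 0.263), with classes drawn from marker UMIs (0.999 for both) and with either other clustering (0.331 to 0.793), though the direction stayed. They held with the NK-like cluster alone (adjusted p = 0.000654 and 0.00229).

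None of the 24 list genes tested in T cell-like cells was called by edgeR, nor any of 32 in immune cells or of 34 in all cells, with 1, 4 and 0 of them at an unadjusted p under 0.05. Between 25 and 3 weeks 8 of 36 were higher, against 1.05% of all genes called higher, led by Xcl1 (6.99 ± 0.57, edgeR, adjusted p = 0.0024), a chemokine of NK and CD8 T cells, and by the activating receptor gene Klrk1 (3.05 ± 0.36, adjusted p = 0.00947), the cathepsin Ctsw (2.70 ± 0.32, adjusted p = 0.00957) and the chemokine Ccl5 (4.65 ± 0.56, adjusted p = 0.00999). The median difference over the 36 genes was 1.09, against 0.0103 over all genes. Between NK or innate lymphoid-like and T cell-like cells 15 of 26 were higher, but these genes were not left out of the clustering, so that count is a description. The 9 members were left out, but genes of like pattern were not, so their p-values between these classes are not free of the clustering either. Of the inducers and receptors (11 genes, among them Il12a, Il15, Il18 and Ifngr1), none of the 3, 5, 7 and 9 tested was called between the genotypes in NK and innate lymphoid-like, T cell-like, immune and all cells, with 1 in each at an unadjusted p under 0.05. None of 10 was called between 25 and 3 weeks, where the receptor chain Il15ra (0.90 ± 0.19, adjusted p = 0.0676) and the interleukin-12 subunit Il12a (2.31 ± 0.51, adjusted p = 0.0701) had the smallest p.

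Genes with a similar pattern were sought for each member. Likeness was the Pearson correlation of log2(CPM + 10) over 70 sums of a class and a library, across 17 classes, among 11116 genes, and these sums share libraries and depth. Gzma was most like Gm2682 (0.949), Klrc1 (0.939) and Klrc2 (0.936), and Gzmb like Klrc1 (0.993), Fasl (0.985) and Gm2682 (0.983). Klrc1 and Klrc2 encode NKG2 receptors, the partners of CD94, and Fasl encodes a death ligand. Gzmk was most like Cd40lg (0.915), Ctla4 (0.912) and Cd163l1 (0.883), the first 2 of which encode surface proteins of activated T cells. Prf1 was nearest to Klre1 (0.981), Nkg7 to Ctsw (0.985), Ifng to Ctsw (0.969), Klrd1 to Cd7 (0.959), and Eomes (0.979) and Tbx21 (0.972) both to Klrc2.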

How the data were processed

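Mitral valve cells of 6 libraries, 1 per genotype and age, were analysed from the deposited matrices. The authors deposited UMI counts per gene and barcode, whole numbers without normalization; per the submitters' processing notes they were made with Cell Ranger 3.1.0 on mm10. Per the labels' protocols, tissue was dissociated with collagenase 2 plus DNase, and after removal of red cells the viable singlets were taken by flow cytometry into 10x 3′ libraries.

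Filters required 500 or more UMIs, 300 or more genes and no more than 10% of UMIs from mitochondrial genes, which kept 53526 of 58351 barcodes. The automatic Scrublet threshold marked 45 barcodes and was replaced by marking the highest scores at 0.8% per 1000 deposited barcodes (5655), which left 47871 cells. Cells were clustered in scanpy 1.11.5 (2000 variable genes without the 9 members, 30 components, 15 neighbours, Leiden resolution 1.0), and clusters with at least 25% of Ptprc-positive cells were clustered again. A cluster was named from marker lists that hold no member, with at least 3 detected markers and a score of at least 0.6. T cell clusters with at least 10% of cells with Rag1 or Dntt were called thymocyte-like. Gene positions are from GENCODE vM21.

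Counts were summed per class and library and tested with edgeR 4.0.16 (TMM, filterByExpr, quasi-likelihood, R 4.3.3; threshold 0.05 after Benjamini-Hochberg adjustment over all genes tested), with age as a block, or the library for NK against T, leaving out ages with under 20 cells in a library. Each SE is the fitted change over the square root of F. With 1 library per genotype and age, the ages are the replicates: the same-numbered libraries share an age in the labels, and their deviations from the group means correlated by 0.332, 0.463 and 0.521 in immune cells and by 0.758, 0.474 and 0.469 in all cells. When tested on simulated data, the fits found 2-fold changes and 4-fold changes at rates of 15% and 83% in T cell-like cells, 40% and 93% in immune cells, 47% and 89% in all cells, 21% and 75% between ages and 73% and 100% between NK and T. Shares carry exact binomial, and levels and ratios exact Poisson, 95% intervals for counting error only. Alternatives were DESeq2 1.42.0, RLE size factors, no filter, no block, doublets kept in, 2 other clusterings, classes from marker UMIs, leaving out libraries and, chosen after the data were seen, leaving out the cell of most UMIs and permuting shares within ages. Among all cells, marker UMIs of Ncr1, Klrb1c or Klre1 without Cd3 gave the NK class, with no marker of innate lymphoid-like cells. Cd3 UMIs gave the T cell class, from which thymocyte-like cells were not left out.

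All 9 members are given, and of each list up to 4 genes of smallest p; for each member up to 3 genes of like pattern with a mean of at least 5 CPM were taken. The values of 1 list gene are not reported here. Members and lists were chosen with earlier results of these data known.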

Additional observations from a re-analysis of the deposited data

Results flagged for a closer look

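The Gzma level ratio of K/B.g7 over B.g7 lay on opposite sides of 1 at the 2 ages. In NK-like cells the K/B.g7 level was 1.143 times the B.g7 level at 8 weeks (425 UMIs in K/B.g7, 551 in B.g7, 95% counting interval 1.005 to 1.3) and 0.8813 times at 25 weeks (556 UMIs in K/B.g7, 682 in B.g7, 0.787 to 0.987). In T cell-like cells the ratio was 2.053 at 8 weeks (148 UMIs in K/B.g7, 40 in B.g7, 1.44 to 2.99) and 0.6132 at 25 weeks (137 UMIs in K/B.g7, 243 in B.g7, 0.494 to 0.759). The T cell-like counts come from few cells, since 42 cells of all libraries held every Gzma UMI of the class. At 8 weeks 25 of the 40 B.g7 UMIs were in 1 cell, and without the cell of most Gzma UMIs in each library the T cell-like ratio was 4.202 at 8 weeks (2.44 to 7.75) and 0.619 at 25 weeks (0.482 to 0.792). In NK-like cells it was then 1.147 at 8 weeks, with an interval that reached down to 1 (1.0 to 1.314). At 25 weeks it was 0.910, and the interval (0.807 to 1.025) included 1. Each ratio compares 1 library with 1 other, the intervals cover counting error only, and the difference between the ages was not tested.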

How the results depend on the processing

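The count of members called between the genotypes stayed at 0 in NK and innate lymphoid-like and in T cell-like cells under every alternative with a test. In immune cells it was 1 (Gzma) with no filter and 0 to 1 when libraries were left out, and in all cells 0 to 1. Counts over all genes moved more. In NK and innate lymphoid-like cells 26 genes were called, against 1 with DESeq2, 41 with no filter, 10 with doublets kept in, 10 with the members among the clustering genes, 9 at Leiden resolution 2.0 and 0 with classes from marker UMIs. In T cell-like cells 1 gene was called, against 0 with RLE factors, doublets kept in, either other clustering or the cell of most Ifng UMIs left out in each library, 36 with no filter, 5 with marker UMIs and 54 with Rag1 or Dntt clusters kept in. In immune cells 29 were called, against 14 with DESeq2, 197 with no filter and 28 to 118 without a library or 0 to 100 without an age. In all cells 0 were called, against 59 with DESeq2, 5 with no filter and 0 to 213 without a library or 0 to 203 without an age. Between 25 and 3 weeks 648 were called, against 1291 with DESeq2, 1084 with no filter and 132 to 2213 without libraries, with 1 to 6 members. Between NK or innate lymphoid-like and T cell-like cells 225 were called, against 109 with DESeq2 and 373 with no filter, and 2 members with marker UMIs.

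Without the replicate block 0 genes were called between the genotypes in NK and innate lymphoid-like, T cell-like or immune cells, 699 between ages and 132, with 4 members, between NK or innate lymphoid-like and T cell-like cells.

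Directions turned for Klrd1 in NK and innate lymphoid-like cells with marker UMIs (-0.134), for Klrd1 in immune cells with DESeq2 (-0.0442), without the replicate block (-0.108), with doublets kept in (-0.0263) and without a library (-0.509 to 0.341) or an age (-0.499 to 0.366), and for Tbx21 in all cells without a library (-0.164 to 0.539) or an age (-0.163 to 0.531). The T cell-like share, 0.147 percentage points higher in K/B.g7, was -0.00907 to 0.248 without an age and -0.755 with marker UMIs. The marker gate did not leave out thymocyte-like cells. At 25 weeks it took 253 cells in K/B.g7 versus 349 in B.g7, where the clusters gave 106 versus 56 mature T cell-like cells. The NK and innate lymphoid-like share differed by -0.350 percentage points. With marker UMIs, which looked for NK genes and not for innate lymphoid-like cells, the difference was -0.0185. Thinned shares were higher in K/B.g7 for 3 members in NK and innate lymphoid-like cells (4 to 5 without an age) and for 6 in T cell-like cells (2 without thinning). Of 27 pairs of a member and a gene of like pattern, 16 were shared with a pseudocount of 1. The cause of these shifts was not tested. Leaving out a library left no residual degrees of freedom in NK and innate lymphoid-like or T cell-like cells, so only values were obtained there. At 3 weeks, too few lymphocytes were found for levels within a class.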
